A study of Oryza sativa Japonica Group with 4 samples.

Results

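The germin and germin-like genes GER2, GER3 and GLP2 of rice, Oryza sativa Japonica Group, were followed in panicle RNA of 4 groups with 1 Affymetrix array each. The members were all genes whose symbol or synonym in the gene tables is GER2, GER3 or GLP2. These names belong to 4 genes, of which 3 have a probe set paired with that gene alone, out of 17905 genes so measured. GER2 (LOC4344839) and GER3 (LOC4344838) have 1 probe set each and GLP2 (LOC4344846) has 2. The other gene named GLP2 (LOC112935981) is paired with no probe set in the table used. The members were selected on their signals and ratios in these same arrays, so the differences below are a description and none was tested.

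Germins are cell-wall glycoproteins of the cupin fold that hold a manganese ion and assemble into stable oligomers. The germin of wheat and barley is an oxalate oxidase, which breaks oxalate into carbon dioxide and hydrogen peroxide. Germin-like proteins share the fold, and some of them act as superoxide dismutases that turn superoxide into hydrogen peroxide. A cluster of germin-like genes on rice chromosome 8 is known for its part in resistance to blast disease.

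The meiotic groups were wild-type panicles and panicles of the polaris (pola) mutant, both collected from early to late meiosis. The ripening groups, 10 to 15 days after pollination, were wild-type panicles and panicles of T2 POLA RNAi plants. RNA of each group came from a pool of 20 panicles taken off 10 greenhouse-grown plants. The description of the RNAi sample speaks of wild lines, whereas all its remaining labels give RNAi, and these were followed. Its title and source speak of RNAi lines in the plural. Below, the RNAi line means this pooled sample, which may hold more than 1 line. The sources used here do not give the cultivar, the mutant allele, the RNAi promoter or the number of RNAi lines, and the signal of the POLA gene itself was not analysed here. No value has a replicate check, since a group is 1 array, and this sets the precision of all that follows.

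Values are MAS5 signals, a linear brightness per probe set that the authors scaled to the same trimmed mean on each array. The median signal was 124 in wild type and 51.8 in the mutant at meiosis, and 163 in wild type and 65.7 in the RNAi line at ripening. For the GAPDH transcript, a control of RNA quality, the signal at the 3' end was 2.04 and 2.01 times that at the 5' end in wild type at meiosis and at ripening, 4.22 times in the mutant and 3.32 times in the RNAi line. For actin it was 5.89 times in wild type and 8.06 times in the mutant, and 6.22 times in wild type and 6.10 times in the RNAi line. The labelled stages were visible in marker genes. The 4 tapetum markers, of the cell layer that feeds the pollen, summed to signals of 59662 in wild type and 86979 in the mutant at meiosis, against 342 in wild type and 149 in the RNAi line at ripening. The 4 endosperm markers summed to 117896 and 154781 in wild type and RNAi line at ripening, against 256 and 96.8 in wild type and mutant at meiosis. In bulk panicles, fewer cells of a type and less RNA per cell cannot be told apart.

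Differences are log2 ratios of signals after a pseudocount of 23.4, so that dim signals do not give extreme ratios, and a size of at least 1 is called a 2-fold difference. A gene was counted in a comparison when it was at least as bright as the array median in either group. Signals below 163, the highest array median, are called dim, and a fold against a dim signal is given as a lower bound by raising that signal to this floor.

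GER2 was higher in both groups with altered POLA. Its signal was 521 in wild type and 1661 in the mutant at meiosis, and 616 in wild type and 2125 in the RNAi line at ripening. Both altered panicles thus read above both wild types, with 1 array behind each value. The share of all genes with this order of signals was not counted. The signal of the mutant was 3.19 times that of its wild type, a log2 ratio of 1.63, and that of the RNAi line was 3.45 times that of its own, a log2 ratio of 1.75. All 4 signals lay above the 75th percentile of their arrays, which ran from 487 to 521.

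Among the genes counted, 2.28% were at least 2-fold higher in the mutant and 3.68% in the RNAi line. A difference upward in both comparisons, which use separate arrays, was seen for 53 genes of 15209, or 0.348%, and GER2 was one of them. With all dim signals raised to the floor, 20 genes or 0.132% were left, GER2 among them. GER2 was chosen for this pattern, so its place among these genes supports nothing further. The GAPDH ratio and the low array median moved with the mutant and RNAi arrays in the same way as GER2, whereas the actin ratio did so in the mutant only. Their part in the difference of GER2 was not tested. After quantile normalization, loess centring and the other alternatives run, the log2 ratio of GER2 lay between 1.50 and 1.70 for the mutant and between 1.63 and 1.83 for the RNAi line.

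GER2 stayed under 2-fold between stages. Ripening over meiosis gave a log2 ratio of 0.23 in wild type and, between the RNAi line and the mutant, one of 0.35. These comparisons share their arrays with the previous ones and are no separate evidence.

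**Figure D1:**
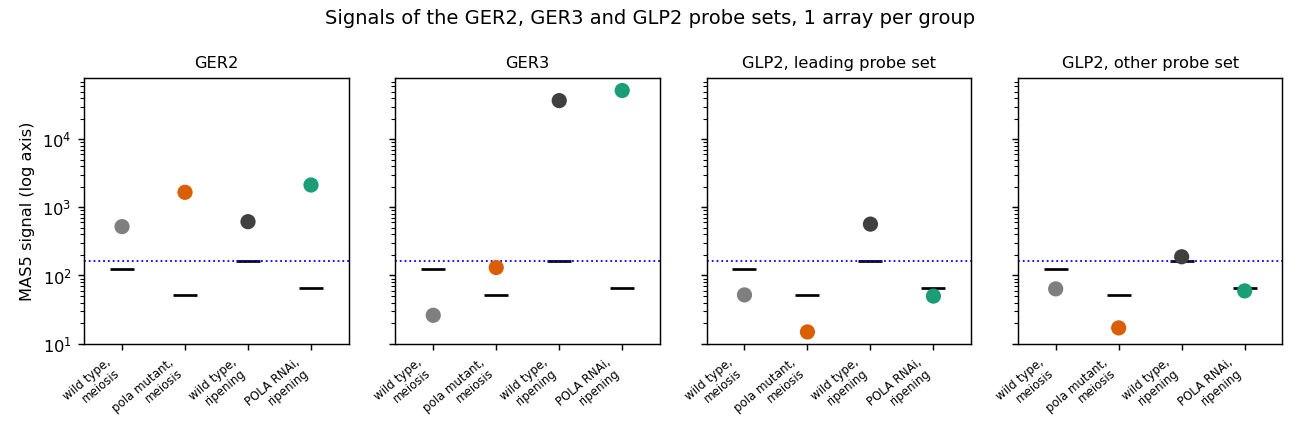
MAS5 signal (log axis) of the 4 probe sets of GER2, GER3 and GLP2 on the 4 arrays, each point 1 array; black dashes mark the median signal of that array and the dotted line the floor of 163. GER2 stands higher in the mutant and the RNAi line than in either wild type, GER3 reaches 36773 and 51722 at ripening, and both GLP2 probe sets are highest in wild type at ripening.

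GER3 was bright in both ripening panicles and dim in both meiotic ones. Its signal at meiosis was 26.1 for wild type and 131 for the mutant, and at ripening it was 36773 for wild type and 51722 for the RNAi line. Both ripening signals were close to the brightest of their arrays, 45837 and 59928, where scanner saturation is not recorded in the file. In wild type its log2 ratio of ripening over meiosis was 9.54, with a bound of at least 225-fold. Between the RNAi line at ripening and the mutant at meiosis the log2 ratio was 8.39 and the bound at least 317-fold.

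The endosperm and embryo markers moved with GER3. The 4 endosperm markers had a median log2 ratio of 9.14 for ripening over meiosis in wild type, and the 3 embryo markers, genes of the late embryo such as the dehydrin gene RAB21, one of 6.45. Their part in the signal of GER3 was not tested.

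Between RNAi line and wild type at ripening, GER3 did not reach 2-fold, with a log2 ratio of 0.49. The endosperm markers had a median of 0.37 in that comparison and the embryo markers one of 0.49. After quantile normalization GER3 had 0.08, the endosperm markers -0.01 and the embryo markers 0.13. After loess centring these were 0.10, -0.01 and 0.14. Between mutant and wild type at meiosis the log2 ratio of GER3 was 1.64, past 2-fold by the rule used. Both signals were dim, so that no fold is given, and the ratio was 0.00 with the common floor and 0.86 with the median signal as pseudocount. Among the embryo markers in that comparison RAB21 went from a dim 47.5 to 668, a log2 ratio of 3.29 and at least 4.09-fold. Its other probe set, above the floor in both groups, went from 262 to 357, a log2 ratio of 0.42. EM had -0.90 and LEA19 had -0.53. Of the endosperm markers 1 of 4, GBSS1, was bright enough to be counted, with -1.81. Its mutant signal was dim, and the ratio was -0.20 with the common floor and -0.88 after quantile normalization. Another counted probe set of GBSS1 gave -0.41.

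GLP2 was high in a single group. Its leading probe set, the brighter of the 2, gave 51.9 for wild type and 14.8 for the mutant at meiosis, and 567 for wild type and 49.8 for the RNAi line at ripening. Only wild type at ripening was above the floor. The other probe set read 63.6, 17.0, 188 and 59.4 in the same order of groups and had its highest signal in the same array.

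For the leading probe set of GLP2 the log2 ratio of RNAi line over wild type at ripening was -3.01, a signal at least 3.47-fold lower, while 7.33% of genes were 2-fold lower there. The other probe set gave -1.35, and its bound was only 1.15-fold. For ripening over meiosis in wild type the leading probe set had a log2 ratio of 2.97, again at least 3.47-fold, and the other probe set had 1.28. Of all genes, 15.4% were 2-fold higher in that comparison, and GER3 and GLP2 were the members among them. The direction of both differences was the same for both probe sets.

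At meiosis neither probe set of GLP2 reached the median of its array in wild type or in the mutant. GLP2 was therefore not counted in that comparison, where the log2 ratio of its leading probe set was -0.98 and that of the other -1.11. Nor was it counted between the RNAi line and the mutant, where they were 0.94 and 1.03. All signals behind these ratios were dim. The synonyms of LOC4344846 include both RGLP1 and RGLP2, and RGLP2 is also a synonym of the neighbouring LOC112935981. Which of the copies each probe set binds was not analysed here, so signal from either gene may be included.

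The members lie next to each other. In the order of genes of the reference assembly ASM3414082v1, the run from GER3 to GLP2 on chromosome 8 holds 10 genes, of which 6 carry a GER or GLP name. It begins with GER3, GER2 and GER1, holds GER6 further on, and ends with the 2 genes named GLP2. Another 4 genes of the run have no such name in the table. Probe sets are paired with 5 genes of the run, GER3, GER2, GER1, GER6 and GLP2 (LOC4344846).

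Neighbours in the run had different profiles over the 4 arrays. GER3 and GER2 are adjacent, and their log2 ratios for ripening over meiosis in wild type were 9.54 and 0.23. GER1 (LOC4344840), next to GER2, had meiotic signals of 131 (wild type) and 120 (mutant) and ripening signals of 756 (wild type) and 2053 (RNAi line). It was thus highest in the RNAi line, 2.72 times wild type, with a log2 ratio of 1.41, and at least 4.63-fold higher at ripening than at meiosis in wild type.

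GER6 (LOC4344843) had meiotic signals of 316 (wild type) and 670 (mutant) and ripening signals of 992 (wild type) and 569 (RNAi line). Its log2 ratio was 1.03 for the mutant, 0.88 with the median signal as pseudocount, and -0.78 for the RNAi line. The nearest measured genes on either side of the run differed from each other. LOC4344847, which follows GLP2, had signals between 3939 and 6490 on the 4 arrays and passed 2-fold in none of the 4 comparisons. LOC4344836, before GER3 with 2 genes between them, had meiotic signals of 123 (wild type) and 190 (mutant) and ripening signals of 40.7 (wild type) and 204 (RNAi line). Its log2 ratio was 1.83 for the RNAi line, past 2-fold, and in wild type it was -1.19 between stages, where both signals were under the array medians and the gene was not counted.

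**Figure D2:**
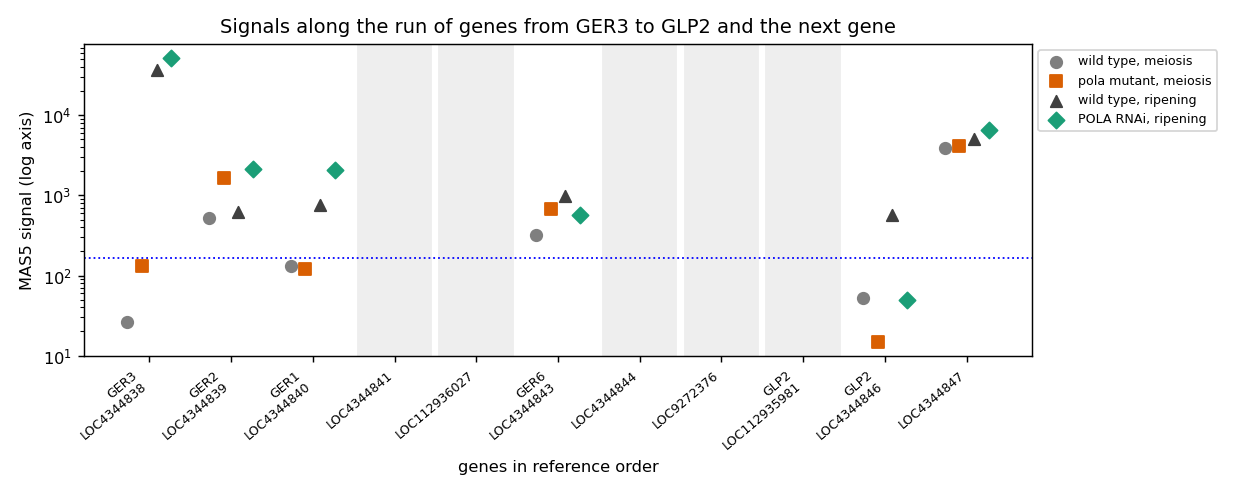
MAS5 signal (log axis) of the leading probe set of each gene in reference order from GER3 to GLP2 and of the next gene, LOC4344847, with 1 point per array; grey columns are genes paired with no probe set and the dotted line is the floor of 163. GER3 spans from 26.1 to 51722 and GER2 from 521 to 2125; the nearest measured gene on the other side, LOC4344836, is not drawn.

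The other genes with a GER or GLP name show how much of the pattern the family shares. Besides the members there are 6, all measured: GER1, GER6, GER5 (LOC4345763), GER4 (LOC4327911), GER7 (LOC4334487) and GER8 (LOC4325743). GER5 lies on chromosome 8 outside the run, GER4 and GER8 on chromosome 1 and GER7 on chromosome 3. They were listed by name and not by their signals, but with earlier results of these arrays known.

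GER5, GER8 and GER4 were brighter in both meiotic panicles than in both ripening ones, the reverse of GER3. GER5, also called GLP1, whose silencing in rice has been linked to short plants and weaker disease resistance, had signals of 12531 (wild type) and 12202 (mutant) at meiosis, 315 in wild type and 94.1 in the RNAi line at ripening. In wild type it was 39.7 times lower at ripening, with a log2 ratio of -5.21. GER8 read 4346 and 5445 in wild type and mutant at meiosis, 142 and 26.6 in wild type and RNAi line at ripening, and its log2 ratio for stage in wild type was -4.73, at least 26.6-fold lower.

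The remaining probe sets of GER8 gave -3.93 and -2.86 for the same comparison. GER4 read 1806 and 2117 in wild type and mutant at meiosis, 608 and 242 in wild type and RNAi line at ripening, with -1.53 for stage in wild type. The tapetum markers, with a median of -7.15, moved with these genes, and their part was not tested. GER7, with signals between 258 and 649, passed 2-fold only between the RNAi line and the mutant, with 1.17, or 0.98 with the median signal as pseudocount.

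In the mutant comparison, of 8 genes with a GER or GLP name that were counted, members included, 3 were higher and none lower. They were GER2, GER3 and GER6, of which GER2 and GER3 were selected on these same arrays. GER3 was counted only through its mutant signal of 131, since its wild-type signal of 26.1 was below the array median. GLP2, with a log2 ratio of -0.98, was below the array median in both groups and not counted. The split between higher and lower thus depends in part on this filter. Leaving the members out, 1 gene was higher. Over all 15964 genes the median log2 ratio was 0.04, and 2.28% were higher and 4.4% lower. The median of the 8 was 0.28, but it includes the selected members, so it is no evidence on the family. Without the members the log2 ratios ran from -0.52 (GER7) to 1.03 (GER6). With the common floor 2 genes were left, GER2 and GER6, and 1.13% of all genes were higher.

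In the RNAi comparison 2 of 8 were higher, GER2 and GER1, and 3 were lower, GLP2, GER4 and GER5. Over 16158 genes the median log2 ratio was 0.07, and 3.68% were higher and 7.33% lower. The median of the 8 was -0.43 with the members in it, so it is no evidence on the family. Without the members, the counted genes ran from -1.53 (GER5) to 1.41 (GER1). Leaving out the members, which were selected on these arrays, 1 gene was higher and 2 were lower. GER4 had a log2 ratio of -1.25 and GER5 one of -1.53. GER5 was under 2-fold after quantile normalization with -0.83, after loess centring with -0.83 and with the common floor with -0.95. Both genes that were higher in the RNAi line sit side by side in the run, but GER2 is one of the selected members. GER3, on the other side of GER2, had 0.49, and LOC4344836, outside the run, had 1.83. The position was noticed in the values and was not tested.

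For ripening over meiosis in wild type, 4 of the 9 measured genes were higher, GER3, GLP2, GER1 and GER6, and 3 were lower, GER4, GER5 and GER8. Over all 16082 genes the median was -0.0026, and 15.4% were higher and 16.4% lower. The median of the 9 was 0.73, but it includes the members, selected on these arrays, so it is no evidence on the family. Without the members the log2 ratios ran from -5.21 (GER5) to 2.33 (GER1). All 4 that were higher at ripening lie in the run, and the 3 that were lower lie outside it. This was noticed in the values and was not tested. Between the RNAi line at ripening and the mutant at meiosis, 3 of 8 were higher, GER3, GER1 and GER7, and 3 lower, GER4, GER5 and GER8, while 15.8% of all 16651 genes were higher and 16.8% lower. Leaving out the members, selected on these arrays, 2 genes were higher and 3 lower in either of these stage comparisons.

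**Figure D3:**
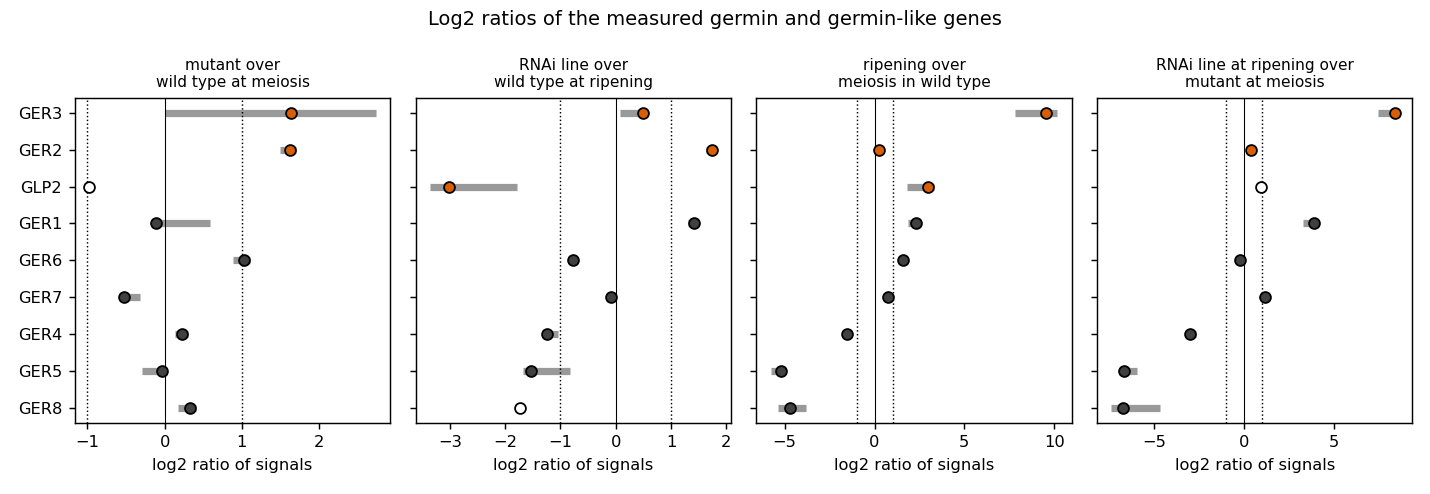
Log2 ratio of signals for the 9 measured genes with a GER or GLP name in 4 comparisons, each point the leading probe set (orange, GER2, GER3 and GLP2; dark, the other genes; open, genes not counted because both signals were below the array medians). Grey bars span the alternatives for counted genes and dotted lines mark 2-fold; GER2 is right of the line in both the mutant and RNAi panels, and the bar of GER3 in the mutant panel reaches 0.

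Enzymes of related chemistry were listed beside the germin genes. By their leading probe sets, none of the 4 superoxide dismutase genes, which remove superoxide as some germin-like proteins do, passed 2-fold in any of the 4 comparisons. Their median log2 ratio was 0.38 for the mutant and 0.35 for the RNAi line, and SodCc2 read 6571 and 10125 in wild type and mutant at meiosis, 10887 and 14839 in wild type and RNAi line at ripening. Of the 7 measured ascorbate peroxidases, the 2 catalases, the NADPH oxidase RBOHB and the 4 glycolate oxidases, none passed 2-fold in the mutant or in the RNAi line by the leading probe set. Other probe sets of these genes did in places. One of GLO1 went from 259 in wild type to 736 in the mutant, a log2 ratio of 1.43, one of CAT-B was lower in the RNAi line with -1.30, and dim ones of APX2 in the RNAi line and of sodA between RNAi line and mutant passed 2-fold upward. No test of the difference between these lists and the germin genes was run.

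Several of these enzymes differed between stages in wild type. The catalase gene CAT-A, whose product removes hydrogen peroxide, went from 468 at meiosis to 5960 at ripening, with 3.61 as its log2 ratio, while its other probe sets, both brighter, gave 2.76 and 2.27. RBOHB, an NADPH oxidase that forms superoxide, went from 4162 to 711, a log2 ratio of -2.51. The ascorbate peroxidase gene APX1 was lower at ripening with -1.32, and APX8, just past 2-fold, read 834 at meiosis and 1696 at ripening. Of the 4 glycolate oxidase genes, by leading probe set, 1 was higher, GLO5, and 2 were with quantile normalization, loess centring or the common floor, beside the 15.4% of all genes that were higher at this stage. The other probe set of GLO1 went from 259 to 2820, a log2 ratio of 3.33, against 0.42 for its leading one.

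The named genes most like each member were found by the root mean square distance between log2 profiles over the 4 arrays, each profile centred on its own mean, among 2333 genes with a descriptive name. For GER2 they were PAL06 (LOC4330040), a phenylalanine ammonia-lyase gene, at 0.20, the U-box gene OsPUB24 (LOC4333620) at 0.28 and the potassium transporter gene HAK17 (LOC4347211) at 0.40. PAL06 had meiotic signals of 316 (wild type) and 761 (mutant) and ripening signals of 409 (wild type) and 1198 (RNAi line), and so was higher in both altered panicles than in both wild types. OsPUB24 was dim on all 4 arrays, with signals between 13.4 and 148.

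For GER3 the nearest were a prolamin gene (LOC4342688), a seed storage protein, at 0.21, the peroxiredoxin gene R1C-Prx (LOC4344045) at 0.35 and RA5 (LOC4342727) at 0.39. The prolamin gene (LOC4342688) had meiotic signals of 9.27 (wild type) and 70.7 (mutant) and ripening signals of 30371 (wild type) and 44136 (RNAi line). For GLP2 they were BGLU20 (LOC9270758) at 0.23, the cold-response regulator CBF3 (LOC4347620) at 0.30 and the amylase gene AMY3D (LOC4345814), also called AMY1.3, at 0.36. CBF3 had meiotic signals of 161 (wild type) and 41.1 (mutant) and ripening signals of 788 (wild type) and 109 (RNAi line), and AMY3D had 61.7, 40.3, 485 and 48.2 in the same order.

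Each member was nearer to these genes than to any other gene with a GER or GLP name. Since they were picked as the nearest of 2333 genes and the family holds few, this order was likely beforehand. It therefore says nothing about how far the members differ from their family. The family gene nearest to GER2 was GER6 at 0.94, the one nearest to GLP2 was GER7 at 1.16, and the one nearest to GER3 was GER1 at 3.02. With 4 arrays such distances describe these samples only, and several of the signals behind them are dim.

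**Figure D4:**
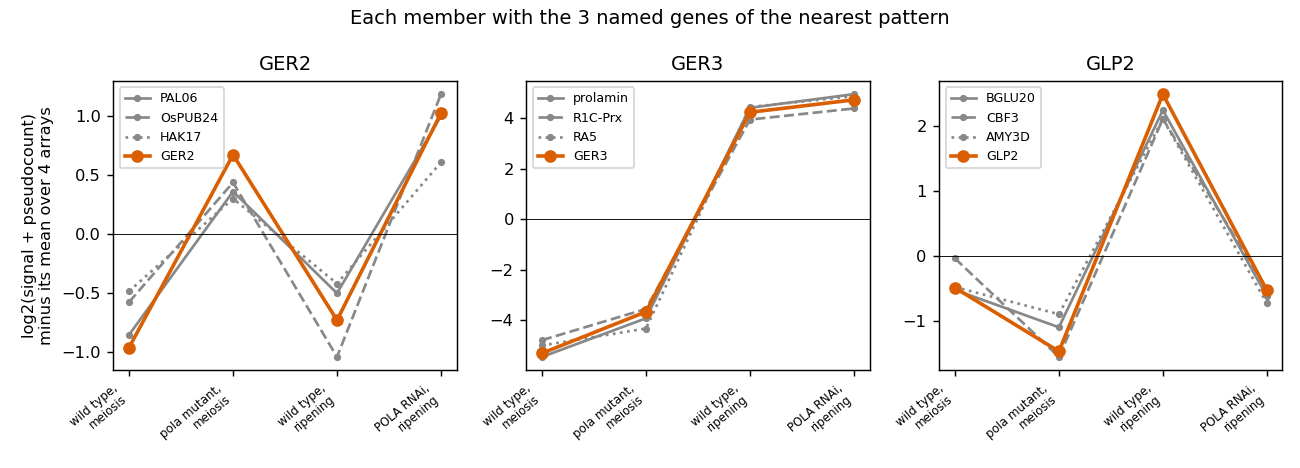
Log2(signal + pseudocount) minus its mean over the 4 arrays for each member (orange) and the 3 named genes with the nearest profile (grey), with 1 point per array. GER2 and its neighbours in profile are high in the mutant and the RNAi line, those of GER3 are high at ripening, and those of GLP2 are high in wild type at ripening.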

How the data were processed

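The authors deposited one intensity per probe set and array, made with MAS5 according to the submitters' processing notes. The sources used here give neither the MAS5 version nor detection calls. Per the labels' protocols, RNA was extracted with Trizol and labelled by the Affymetrix one-cycle method. From these, 187 control probe sets were set aside, leaving 57194, of which 22436 were paired with exactly 1 gene and 95 with several in a platform annotation table. Names came from assembly ASM3414082v1, which matched all 17905 genes. Of its coordinates, the start positions were used, only to put the genes of chromosome 8 in order. A gene was led by its brightest probe set, with those ending in _x_at used only where it had no other. The pseudocount is the 25th percentile of all signals. The alternatives were quantile normalization, loess centring (span 0.3), a median log2 ratio shifted to 0, pseudocounts of 5.85 and 103, a common floor of 163 and the mean over probe sets, and for counts also no filter, a 75th percentile filter and a 4-fold threshold.

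The members and lists were chosen with earlier results of these data known. The reference has no gene descriptions, so lists meant to be found by words were matched by symbol or synonym. Genes named were all those with a GER or GLP name, at most 4 per list of related enzymes among those past 2-fold, and the 3 nearest profiles per member; SodCc2, GLO1, GLO5, LOC4344847, LOC4344836 and the markers named singly were added after their values were seen. The glycolate oxidase list was added to the related enzymes as counts. Since each group is 1 array, nothing was tested. The ratio and call steps were checked on simulated data, with large changes planted in bright probe sets and the same baseline on each array. Dim signals, differences near 2-fold and arrays of unequal median were not covered by this check. Python 3.11.15, numpy 2.4.6, pandas 2.3.3, statsmodels 0.14.6 and matplotlib 3.10.9 were used.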

Additional observations from a re-analysis of the deposited data

Results flagged for a closer look

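For GER6 and GER4 the log2 ratios had opposite signs in comparisons of the same kind, with all signals at or above the floor, though in each pair only 1 of the ratios was past 2-fold. GER6 had log2 ratios of 1.03 for the mutant over wild type at meiosis and -0.78 for the RNAi line over wild type at ripening. For stage it had 1.58 in wild type and -0.23 between the RNAi line and the mutant, from the same 4 arrays. GER4 had 0.23 for the mutant and -1.25 for the RNAi line. A mutant and an RNAi line at different stages are compared here, each with 1 array, and the differences were not tested.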

How the results depend on the processing

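For GER2, GER3 and GLP2, 60 of 62 values under the alternatives kept their direction and their side of 2-fold. The exceptions were GER3 in the mutant comparison, with 0.86 with the median signal as pseudocount and 0.00 with the common floor, since both its signals were dim and the floor sets them equal. GER3 for stage in wild type ranged from 7.81 to 10.17, and GLP2 ranged from -3.36 to -1.80 in the RNAi comparison and from 1.80 to 3.31 for stage. For the other 6 genes, 136 of 141 values kept their side of 2-fold and no called difference turned, while GER1, which was under 2-fold in the mutant, ranged from -0.13 to 0.59 there. Among these 6 the count of genes 2-fold higher in the mutant went from 1 to 0 with the median signal as pseudocount and with a 4-fold threshold. That threshold also took the genes higher in the RNAi line from 1 to 0, those lower there from 2 to 0, and those higher at ripening, in wild type and between RNAi line and mutant, from 2 to 1 each. The last count was also 1 with the median signal as pseudocount. Genes lower in the RNAi line went from 2 to 1 after quantile normalization, after loess centring, with the common floor and with the 75th percentile filter, and to 3 with no filter. Genes lower at ripening in wild type went from 3 to 2 with the 4-fold threshold. The cause was not tested, except that stricter thresholds and filters keep fewer genes by construction. The mean over probe sets could differ only for GLP2 and GER8. No paired analysis was possible because each group has 1 array. Besides the single array per group, brightness limits the reading: signals under the floor of 163 have no reliable order, which covers GER3 at meiosis and GLP2 in all groups but wild type at ripening.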
